A study of Mus musculus with 21 samples.

Results

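The genes described here are 10 transcription factors that direct secretory cell fate in the intestine, namely Atoh1, Gfi1, Spdef, Sox9, Bhlha15, Foxa1, Foxa2, Foxa3, Klf4 and Hes1. They were found by name, by matching the Ensembl identifiers of the deposited count table to gene symbols. The rule uses no measured value, though these factors were picked with earlier results of these data known. They are 10 of the 55414 gene identifiers in that table, and all 10 were among the 13070 genes that passed the filter on low counts. The members were measured in 21 bulk RNA-seq libraries of Paneth cells (PCs), the granule-filled secretory cells of the small intestinal crypts, FACS-sorted from the small intestine of mice. The mice were of the C57BL/6J strain with no transgene named, and their ages and the housing of the germ-free animals are not given in the labels or methods. For 7 weeks they received either Milli-Q (purified) water or the same with ZnSO4, labelled as 200 mM. Either water went to specific pathogen free (SPF) mice (3 libraries on Milli-Q water, 3 on zinc water), to SPF mice that received broad-spectrum antibiotics for the final 3 weeks (4 and 4) and to germ-free mice (3 and 4). The design sets the action of zinc on PCs side by side for a normal, a depleted and an absent microbiome.

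In the gut epithelium, Notch signalling between neighbouring crypt cells sets the choice between absorptive and secretory fate. Where Notch is active, Hes1 represses Atoh1, and the cell takes the absorptive path. Where Atoh1 escapes this repression the cell becomes secretory, and later factors such as Gfi1, Spdef, Sox9 and Bhlha15 (also called Mist1) shape goblet cells and PCs and their secretory machinery. The forkhead factors Foxa1, Foxa2 and Foxa3 bind enhancers of gut epithelial genes, and Klf4 is a zinc finger factor of differentiated epithelium that is needed for goblet cell maturation.

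Relative to the bulk of other genes, Bhlha15 was 2.1-fold and Foxa3 2.16-fold higher in germ-free than SPF PCs on Milli-Q water, Gfi1 was higher by a smaller factor, and Klf4 was lower. Hes1 was lower and Spdef higher than after antibiotics, both on Milli-Q water. Atoh1, which stands at the head of the secretory programme, and Foxa1 and Foxa2 were called in none of the comparisons in the main TMM-scaled fit. Some alternative TMM-scaled fits called Atoh1 higher against SPF on zinc water. For antibiotics against SPF no member was called in edgeR's test, beside 0.199% of all genes on Milli-Q and 8.97% on zinc water. On zinc water DESeq2 called 2 members there and limma-voom 3. Zinc water went with lower Sox9 in antibiotics-treated mice and, averaged over the contexts, lower Spdef. Of the fits that left out a library, 4 of 8 kept the Sox9 call and 5 of 21 the Spdef call. All differences above are relative to the other genes of the same library. When libraries were scaled by their totals alone, none of the rises in germ-free mice was called. Falls were called for all members but Bhlha15, Foxa3 and Spdef in at least 1 germ-free comparison. Under that scaling 9338 of 13070 genes were called for germ-free against SPF on Milli-Q water. Unless another tool is named, adjusted p-values come from the quasi-likelihood test of edgeR, corrected over all genes tested.

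Promoter sequence is shown for Bhlha15, Foxa3 and Klf4, the members with the largest log2 fold changes between germ-free and SPF mice on Milli-Q water in the TMM-scaled fit of all libraries. The RefSeq promoter table (GRCm38.p6) held entries for 8 of the 10 members, and none for Sox9 and Hes1. Each sequence was placed in GRCm39 by an exact match, is written 5′ to 3′ on the strand of the gene and stops before the first annotated exon. Capitals mark E-boxes, the CANNTG motif that basic helix-loop-helix factors such as Atoh1 and Bhlha15 recognise, which reads the same on both strands.
Bhlha15 (chr5:144126854-144127085, plus strand): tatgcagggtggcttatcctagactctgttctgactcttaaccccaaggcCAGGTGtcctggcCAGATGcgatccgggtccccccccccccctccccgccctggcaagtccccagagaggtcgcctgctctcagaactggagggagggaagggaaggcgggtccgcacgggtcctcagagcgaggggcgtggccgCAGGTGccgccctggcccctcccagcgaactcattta
Foxa3 (chr7:18757472-18757714, minus strand): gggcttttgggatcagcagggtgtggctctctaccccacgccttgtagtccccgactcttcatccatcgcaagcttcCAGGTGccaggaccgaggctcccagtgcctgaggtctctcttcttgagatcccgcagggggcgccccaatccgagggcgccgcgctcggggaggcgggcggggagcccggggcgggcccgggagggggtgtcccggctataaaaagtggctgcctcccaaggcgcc
Klf4 (chr4:55532529-55532725, minus strand): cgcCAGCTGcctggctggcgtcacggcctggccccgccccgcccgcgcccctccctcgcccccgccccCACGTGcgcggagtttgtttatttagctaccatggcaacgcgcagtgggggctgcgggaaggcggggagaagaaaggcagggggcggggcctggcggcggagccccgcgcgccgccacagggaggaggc
In the 250 bases before the RefSeq start, Bhlha15 held 3 CANNTG matches, Klf4 2 and Foxa3 1. Of 32851 promoters in the table, 66.2% held at least 1 match and 12.2% held 3 or more. The single windows of Atoh1 and Spdef held 0 matches. Such matches are a description of the letters in these windows and were not tied to binding by any measurement here.

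Totals ranged from 9888174 to 16896714 counts, and members held from 67 counts (Gfi1) to 3716 counts (Spdef) in a library. The Paneth cell markers Defa24, Lyz1, Mmp7, Ang4, Itln1 and Mptx2 together took 25.1 to 43% of all counts, and immune and stromal markers at most 0.00181 and 0.000381%. Goblet cell markers took 1.11 to 1.76%. Enterocyte markers took 0.0135 to 0.0468% in SPF mice on Milli-Q water and 0.0647 to 0.12% on zinc water. After antibiotics they took 0.0127 to 0.0222% and 0.0176 to 0.0369%, and in germ-free mice 0.00878 to 0.0406% and 0.0092 to 0.119%. Shares of several other cell types were lower in germ-free libraries, partly overlapping for stem cell markers. Stem and cycling cell markers took 0.144 to 0.34% of counts in germ-free libraries and 0.314 to 0.588% in the others, tuft cell markers at most 0.0096% against at least 0.0116%, and enteroendocrine markers at most 0.00694% against at least 0.00727%. These are shares of all counts, a scale on which the median gene was also lower, at a log2 fold change of -0.99 against SPF on Milli-Q water. Relative to other genes (TMM), 1 of the 6 stem and cycling markers was called higher and 2 lower there (median log2 fold change -0.49), 0 and 2 of 5 tuft markers tested (-0.30) and 1 and 3 of 6 enteroendocrine markers (-1.43). Of the 8 goblet markers, 3 were called higher and 2 lower there (0.35), where 24.2% of all genes were called. The part of these cell types in the results below was not tested. SPF Milli-Q replicate 2 stood apart for several members, as given with them. The study used animals of both sexes, and SPF zinc replicate 1 held 6228 counts of Xist, a transcript of female cells, against at most 34 in any other library. Since these are bulk samples, fewer cells of a type and less RNA per cell cannot be told apart. P-values set differences between groups against the spread between libraries of the same group, which was estimated over all 6 groups together.

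The members are set beside a large shift of secreted products. The 28 Defa genes, which encode the α-defensins, took 24.1 to 36.4% of counts in the 14 SPF and antibiotics libraries and 39.3 to 44.5% in the 7 germ-free libraries. Together with 10 other PC products they took 37.8 to 53.9% and 57.2 to 64.9%. Defa genes include near-identical copies that counting could have split, so single ones are uncertain. On Milli-Q water 18 of the 20 Defa genes tested were called higher in germ-free mice against SPF, with a median log2 fold change of 1.47 against -0.028 for all genes. Under library totals this median was 0.52, with 12 called higher and 1 lower. Defa24 rose by 1.45 ± 0.25 log2 units (SE), the lysozyme gene Lyz1 by 1.08 ± 0.29, the intelectin gene Itln1 by 1.62 ± 0.26 and Mmp7, which encodes the protease that matures mouse α-defensins, by 0.74 ± 0.23, at adjusted p-values of 0.000308, 0.00895, 0.00015 and 0.022. Under library totals these were 0.52 ± 0.13, 0.15 ± 0.16, 0.68 ± 0.15 and -0.20 ± 0.16, so that Defa24 and Itln1 stayed called and the direction of Mmp7 turned. Of the 10 other products 5 were called higher and 3 lower (median log2 fold change 0.40), and under library totals 3 higher and 4 lower (-0.57). The 3 that fell, named here after their values were seen, were the lectin genes Reg3b (-4.32 ± 0.52) and Reg3g (-2.93 ± 0.40) and the pentraxin gene Mptx2 (-0.84 ± 0.30), at adjusted p-values of 9.95e-06, 3.12e-05 and 0.0464, and all 3 were lower under library totals too. The 10 factors together took 0.0504 to 0.0901% of counts in SPF and antibiotics libraries and 0.0396 to 0.0548% in germ-free libraries. The TMM factors, which scale libraries so that most genes do not differ, were 0.522 to 0.834 in germ-free libraries and 0.996 to 1.49 in the others. CPM values below are counts scaled to a common library size with these factors.

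**Figure D1:**
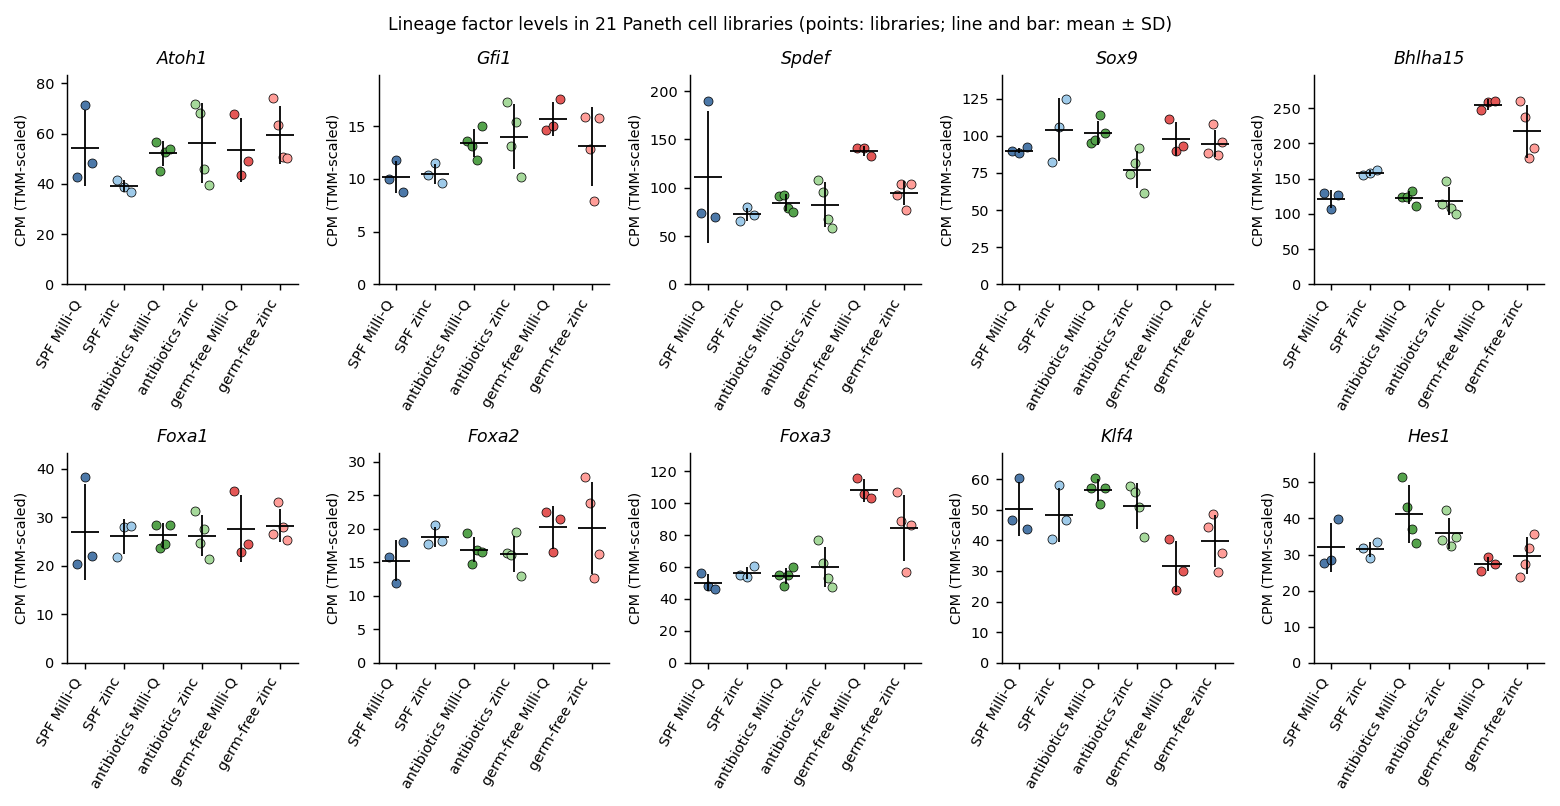
Level of each factor in CPM (TMM-scaled, linear axis from 0) in the 21 libraries by group. Points are libraries, and the line and bar are the mean ± SD of the 3 or 4 libraries. Bhlha15 stood at 247 to 260 CPM in the germ-free Milli-Q libraries and at 107 to 130 CPM in the SPF Milli-Q libraries.

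Per length, Spdef and Bhlha15 had the highest levels of the members and Gfi1 the lowest. Averaged over all libraries, TPM values (counts divided by the length of the longest transcript and scaled to a common sum) were 50.8 for Spdef, 43.3 for Bhlha15, 31.7 for Foxa3, 26 for Atoh1, 23.3 for Sox9, 16.7 for Klf4, 13.1 for Hes1, 8.71 for Foxa1, 5.59 for Foxa2 and 4.62 for Gfi1. For comparison, Defa24 stood at 319217 to 410471 TPM. By mean transcript length Sox9 moved from place 5 to 7 and Hes1 from 7 to 5. TPM is a share of the whole library, so it falls for a factor as products take more of it. In the SPF Milli-Q group, where Atoh1 stood above Foxa3, each factor overlapped the next one in order across the 3 libraries. In germ-free mice on Milli-Q water Bhlha15 (37.9 ± 1.7 TPM, SD, n = 3) and Spdef (37.6 ± 0.69) overlapped each other and lay above Foxa3 (27.7 ± 1.84), which lay above Atoh1 (13.2 ± 3.25) and Sox9 (12.3 ± 1.51) without overlap. Klf4, Hes1, Foxa1, Foxa2 and Gfi1 followed at 5.33 to 2.88 TPM, each overlapping the next. Within germ-free mice on zinc water the order was the same, with a gap between Foxa3 (24.2 ± 4.33 TPM, SD, n = 4) and Atoh1 (16.4 ± 0.944).

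The first set of comparisons asked how the absence of a microbiome goes with the members. On Milli-Q water, 3169 of 13070 genes (24.2%) differed between germ-free and SPF mice at the threshold of 0.05, and 4 of the 10 members did, 3 higher and 1 lower. The median log2 fold change of the members was 0.22. Against antibiotics-treated mice on Milli-Q water 22.2% of genes and 5 members were called, 3 higher and 2 lower. On zinc water 5.85% of genes and 1 member differed between germ-free and SPF mice, and 13.2% of genes and 2 members between germ-free and antibiotics-treated mice. The comparisons with SPF and with antibiotics-treated mice share the germ-free libraries.

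Among the factors of the mature secretory cell, Bhlha15 showed the clearest difference. Bhlha15 (ENSMUSG00000052271, chr5:144127086-144131259 in GRCm39, plus strand) organises the secretory apparatus of granule-forming cells. Its level was 130, 107 and 127 CPM in the SPF Milli-Q libraries, 124, 124, 132 and 111 CPM after antibiotics, and 247, 258 and 260 CPM in germ-free mice. Every germ-free library on Milli-Q water lay above every other Milli-Q library. The rise was 2.1-fold over SPF (log2 1.07 ± 0.15, SE, adjusted p = 4.97e-05) and 2.07-fold over antibiotics (log2 1.05 ± 0.14, adjusted p = 1.97e-05). On zinc water the SPF libraries held 155, 158 and 162 CPM, the antibiotics libraries 114, 147, 109 and 100 CPM, and the germ-free libraries 260, 237, 179 and 193 CPM. All 4 germ-free libraries again lay above the others. There the rise was 1.84-fold over antibiotics (log2 0.88 ± 0.13, adjusted p = 0.000176) but 1.37-fold over SPF, which missed the threshold (log2 0.45 ± 0.14, adjusted p = 0.056, and 0.026 by DESeq2). Without germ-free zinc replicate 3 or 4 this rise over SPF was called (adjusted p = 0.0322 and 0.0259). The calls over SPF and antibiotics on Milli-Q water and over antibiotics on zinc water held without any single library. With library totals only, these 3 differences were 0.12 ± 0.18, 0.013 ± 0.17 and 0.096 ± 0.15 (log2, SE), none called, while the median of all genes was -0.99, -1.05 and -0.74. Tecpr1, on the opposite strand, shares 2 exonic bases with Bhlha15, and its log2 fold change in germ-free against SPF mice on Milli-Q water was 0.34 ± 0.16.

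Foxa3 followed the same course. This forkhead factor (ENSMUSG00000040891, chr7:18747209-18757471, minus strand) stood at 56.4, 48.3 and 46.1 CPM in the SPF Milli-Q libraries, at 55, 47.8, 54.9 and 60.3 CPM after antibiotics and at 116, 106 and 103 CPM in germ-free mice. The germ-free libraries did not overlap the others. The rise was 2.16-fold over SPF (log2 1.11 ± 0.18, SE, adjusted p = 0.000189) and 1.99-fold over antibiotics (log2 0.99 ± 0.17, adjusted p = 0.000242), and both calls held without any single library. On zinc water the values were 54.8, 53.8 and 60.7 CPM in SPF mice, 76.6, 62.7, 53 and 47.7 CPM after antibiotics and 107, 89, 56.6 and 86 CPM in germ-free mice, where replicate 3 fell among the other groups. The log2 fold changes there were 0.58 ± 0.17 over SPF and 0.49 ± 0.16 over antibiotics, at adjusted p-values of 0.0453 and 0.0392. The first of these calls was lost without SPF zinc replicate 1, 2 or 3 or germ-free zinc replicate 1 or 2 (adjusted p 0.107, 0.196, 0.118, 0.138 and 0.0956), and the second without antibiotics zinc replicate 2, 3 or 4 or germ-free zinc replicate 1, 2 or 4 (0.07, 0.125, 0.138, 0.136, 0.0887 and 0.0569). With library totals only the differences were 0.16 ± 0.19 over SPF and -0.05 ± 0.18 over antibiotics on Milli-Q water, and -0.068 ± 0.18 and -0.28 ± 0.17 on zinc water, so the direction of 3 of the 4 turned and none was called.

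The other forkhead factors were not called in these comparisons. Foxa1 (ENSMUSG00000035451, chr12:57587414-57593702, minus strand) had log2 fold changes of 0.031 ± 0.21 and 0.12 ± 0.20 (SE) in germ-free against SPF mice on Milli-Q and zinc water. For Foxa2 (ENSMUSG00000037025, chr2:147884797-147889005, minus strand) these were 0.41 ± 0.22 and 0.084 ± 0.21. The adjusted p-values were 0.933, 0.763, 0.185 and 0.85. Scaled by totals alone, Foxa1 stood at -0.96 ± 0.27 and Foxa2 at -0.54 ± 0.23 on Milli-Q water, both called lower around the median of -0.99. Across all groups Foxa1 ranged from 20.4 to 38.3 CPM, with SPF Milli-Q replicate 2 the highest, and Foxa2 from 11.9 CPM in that same library to 27.7 CPM in germ-free zinc replicate 1.

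Klf4 and Hes1 were the members called lower in germ-free mice, Hes1 only against antibiotics-treated mice on Milli-Q water. Klf4 (ENSMUSG00000003032, chr4:55527139-55532528, minus strand) stood at 46.6, 60.3 and 43.7 CPM in the SPF Milli-Q libraries, at 57.1, 60.5, 51.9 and 57.1 CPM after antibiotics and at 40.4, 23.8 and 30.1 CPM in germ-free mice. The germ-free libraries lay below all others on Milli-Q water. Klf4 fell 1.59-fold against SPF (log2 -0.67 ± 0.19, SE, adjusted p = 0.0153) and 1.8-fold against antibiotics (log2 -0.85 ± 0.19, adjusted p = 0.00246). The call against antibiotics held without any single library. The call against SPF was lost without SPF Milli-Q replicate 2, or replicate 2 or 3 of the germ-free Milli-Q group (adjusted p 0.0658, 0.107 and 0.0549). On zinc water the groups overlapped, at 40.4 to 58 CPM in SPF mice, 41 to 57.7 CPM after antibiotics and 29.8 to 48.6 CPM in germ-free mice. The differences were then -0.28 ± 0.18 and -0.37 ± 0.17 at adjusted p-values of 0.354 and 0.143. With library totals only, Klf4 was called lower in all 4 comparisons, at -1.64 ± 0.24 and -1.88 ± 0.23 against SPF and antibiotics on Milli-Q water and at -0.93 ± 0.22 and -1.14 ± 0.20 on zinc water.

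Hes1 (ENSMUSG00000022528, chr16:29882134-29886643, plus strand), the Notch-induced repressor of Atoh1, stood at 27.7, 28.4 and 39.9 CPM in the SPF Milli-Q libraries, at 51.5, 43.2, 37 and 33.2 CPM after antibiotics and at 25.5, 29.3 and 27.3 CPM in germ-free mice. Germ-free libraries lay below all antibiotics libraries but overlapped the SPF libraries. Hes1 was 1.51-fold lower than after antibiotics (log2 -0.59 ± 0.17, SE, adjusted p = 0.0135), which held without any single library, with adjusted p up to 0.0485. Against SPF the difference was -0.23 ± 0.18 (adjusted p = 0.356). The mean was 32 ± 6.85 CPM (SD, n = 3) in SPF mice and 41.2 ± 8.02 CPM (n = 4) after antibiotics, a difference that was not called. On zinc water the difference was -0.076 ± 0.16 against SPF and -0.27 ± 0.15 against antibiotics, at adjusted p-values of 0.823 and 0.251. Fitted with the log2 share of 18S rRNA counts as a covariate, Klf4 was at -0.49 ± 0.25 against SPF (adjusted p = 0.166) and at -0.65 ± 0.25 against antibiotics (0.0955) on Milli-Q water, and Hes1 at -0.27 ± 0.21 against antibiotics (0.435), none of them called. The share of 18S counts was 4.28 to 6.57% in germ-free and 1.44 to 2.51% in SPF and antibiotics libraries on Milli-Q water, and 1 of the 6 stem and cycling markers was called higher and 2 lower against SPF (TMM). The part of the stem and cycling markers in these differences was not tested.

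**Figure D2:**
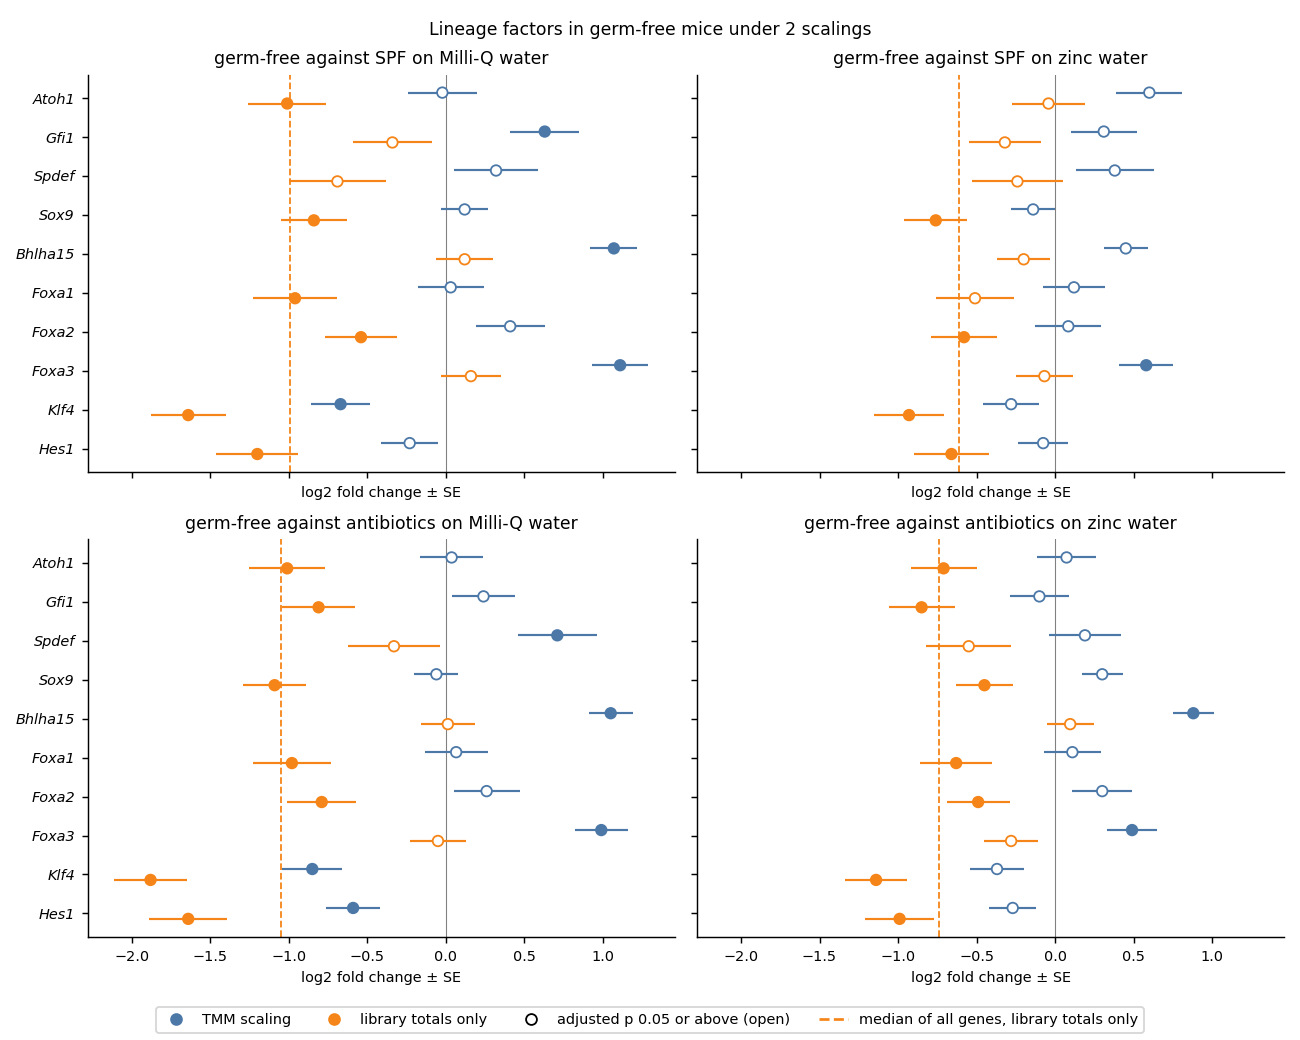
Log2 fold change ± SE of each factor in germ-free mice against SPF mice (upper panels) and antibiotics-treated mice (lower panels) on Milli-Q (left) and zinc water (right). Blue points use TMM scaling and orange points library totals only, filled points passed an adjusted p of 0.05, and the dashed line is the median of all genes under library totals, which was -0.99, -0.61, -1.05 and -0.74. Bhlha15 and Foxa3 lay to the right of the other factors, and Klf4 and Hes1 to the left, in both panels on Milli-Q water and under both scalings.

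Shares within the 10 factors do not depend on how libraries are scaled. Of the counts of all 10 factors, Bhlha15 held 22.1% ± 5.03 (SD, n = 3) in SPF mice on Milli-Q water, 21.6% ± 1.29 (n = 4) after antibiotics and 33% ± 2.56 (n = 3) in germ-free mice. On zinc water these were 28.1% ± 1.39 (n = 3), 22% ± 2.35 (n = 4) and 31.8% ± 1.98 (n = 4). The Klf4 share was 7.75 to 10.8% in the 14 SPF and antibiotics libraries and 3.19 to 6.52% in the 7 germ-free libraries, which did not overlap. Foxa3 held 7.36 to 12.7% and 10.1 to 14.2%, and Hes1 4.34 to 8.7% and 3.11 to 5.66%. Atoh1, at the top of the programme, held 6.19 to 11.9% and 5.81 to 9.75%. These shares were given as a description, and show unequal change among the factors, not which of them was constant.

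**Figure D3:**
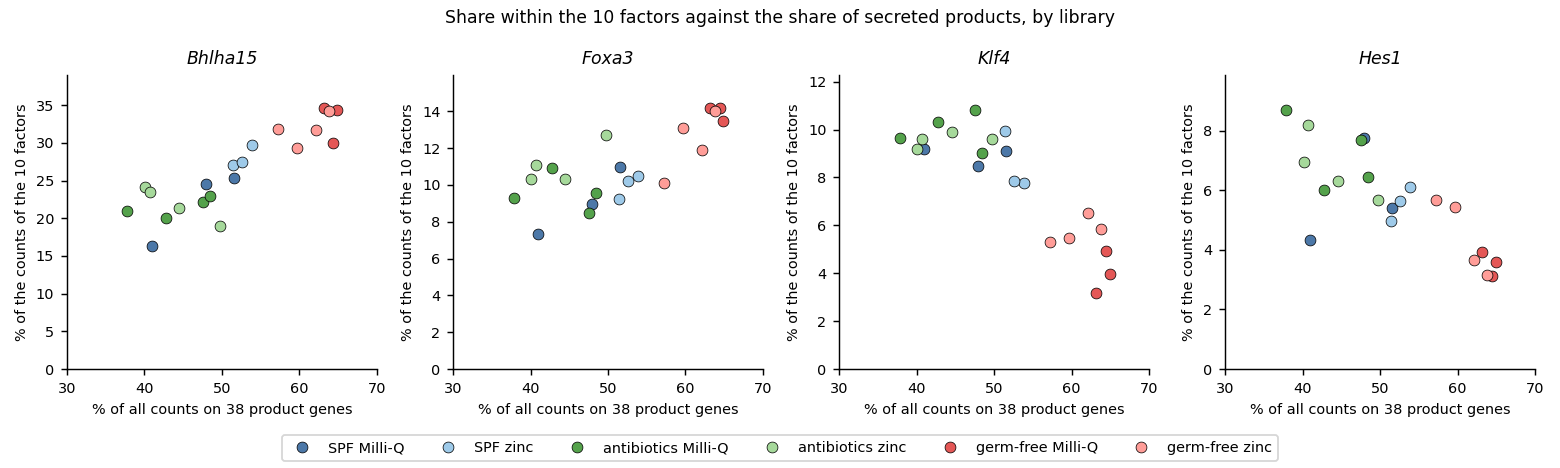
Percent of the counts of the 10 factors held by Bhlha15, Foxa3, Klf4 and Hes1 (vertical, from 0) against the percent of all counts on the 38 secreted product genes (horizontal) in each of the 21 libraries, coloured by group. The 7 germ-free libraries sit at 57.2 to 64.9% on the horizontal axis, to the right of all others, with Klf4 shares below those of every other library.

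Of the factors that start and sort the secretory lineage, Gfi1 was called in 1 germ-free comparison and Atoh1 in none in the main fit. Atoh1 (ENSMUSG00000073043, chr6:64706109-64708229, plus strand), the factor that commits cells to the secretory lineage, stood at 42.8, 71.5 and 48.4 CPM in the SPF Milli-Q libraries, at 56.6, 45.1, 52.7 and 54 CPM after antibiotics and at 67.9, 43.4 and 49 CPM in germ-free mice. These groups overlapped, and the log2 fold change of germ-free against SPF mice was -0.022 ± 0.22 (SE, adjusted p = 0.954). On zinc water Atoh1 held 41.4, 38.8 and 36.7 CPM in SPF mice and 74, 63.3, 50.5 and 50.1 CPM in germ-free mice, without overlap, but the difference missed the threshold (log2 0.60 ± 0.21, adjusted p = 0.0806). How many of all genes separate like this was not counted. Atoh1 was called there in 3 of 11 other settings. These were limma-voom with quality weights (adjusted p = 0.013), no filter on low counts (0.00902) and the replicate block (0.0495). In edgeR, 1 of 7 fits that left out a library called it, that without germ-free zinc replicate 4 (0.0408). The highest adjusted p of these 7 was 0.242. Scaled by totals only, Atoh1 was at -1.01 ± 0.25 for germ-free against SPF on Milli-Q water (adjusted p = 0.00101), near the median of all genes of -0.99, and at -0.042 ± 0.23 on zinc water.

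Gfi1 (ENSMUSG00000029275, chr5:107864523-107873902, minus strand), a repressor that acts after Atoh1 to keep goblet cells and PCs apart from enteroendocrine cells, had the lowest CPM and TPM of the members. It stood at 9.95, 11.8 and 8.8 CPM in the SPF Milli-Q libraries, at 13.6, 13.1, 11.8 and 15 CPM after antibiotics and at 14.6, 15 and 17.6 CPM in germ-free mice. Germ-free libraries lay above SPF but overlapped the antibiotics libraries. The rise over SPF was 1.55-fold (log2 0.63 ± 0.22, SE, adjusted p = 0.0371). This call was lost without SPF Milli-Q replicate 1 or 3 or germ-free Milli-Q replicate 2 or 3 (adjusted p 0.0963, 0.134, 0.0755 and 0.135), as well as without the filter on low counts (0.0672), with the 18S term (0.0532) and with totals outside products and 18S (0.152). With library totals only the direction turned (-0.34 ± 0.25, adjusted p = 0.216). On zinc water Gfi1 ranged from 7.9 to 15.9 CPM in germ-free mice, around all 3 SPF libraries (9.6 to 11.5 CPM).

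Spdef (ENSMUSG00000024215, chr17:27933326-27947929, minus strand), an ETS factor that promotes goblet cell and PC maturation, had a value far above the rest in 1 library. It stood at 73.5, 190 and 69.6 CPM in the SPF Milli-Q libraries, at 91, 92.5, 78.9 and 74.7 CPM after antibiotics and at 141, 141 and 133 CPM in germ-free mice. SPF Milli-Q replicate 2 was the highest of all 21 libraries and lay above the germ-free libraries. It was also the highest SPF library on Milli-Q water for Atoh1, Foxa1, Gfi1 and Klf4, and had the largest share of goblet markers of all libraries (1.76%). The germ-free against SPF difference was 0.32 ± 0.27 log2 units (SE, adjusted p = 0.403) with this library and 0.92 ± 0.20 (adjusted p = 0.00337) without it. Against antibiotics the rise was 1.64-fold without overlap (log2 0.71 ± 0.25, adjusted p = 0.0407), and this call was lost in each of the 7 fits that left out a library (adjusted p 0.0542 to 0.11) and turned to -0.33 ± 0.29 with library totals only. On zinc water Spdef held 65.8, 79.7 and 72.1 CPM in SPF mice, 108, 95.9, 68 and 58.1 CPM after antibiotics and 92, 104, 77.5 and 104 CPM in germ-free mice. There the difference to SPF was 0.38 ± 0.25 and to antibiotics 0.19 ± 0.23, neither called.

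Sox9 (ENSMUSG00000000567, chr11:112673009-112678586, plus strand), an HMG-box factor that PCs need to form and that crypt stem cells also express, was not called in the germ-free comparisons. It stood at 89.6, 88.5 and 92.2 CPM in SPF mice and 111, 90 and 92.9 CPM in germ-free mice on Milli-Q water, a log2 difference of 0.12 ± 0.15 (SE, adjusted p = 0.599). With totals only this was -0.84 ± 0.21 (adjusted p = 0.00129) where the median of all genes was -0.99.

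The second set of comparisons asked whether depletion of the microbiome by antibiotics goes with the members. On Milli-Q water 0.199% of genes and none of the members were called in edgeR's test. DESeq2 and limma-voom called 0 members, beside 49 and 26 of 13070 genes. An unadjusted p under 0.05 was reached by 1 member, Hes1 (0.36 ± 0.16), and by 8.13% of all genes. Gfi1 held 8.8 to 11.8 CPM in SPF mice and 11.8 to 15 CPM after antibiotics, and Sox9 88.5 to 92.2 and 95 to 114 CPM. The share of all genes whose libraries separate between these groups was not counted. The member log2 fold changes ran from -0.40 (Spdef, 0.25 SE) to 0.39 (Gfi1, 0.20 SE). On zinc water 8.97% of genes were called and again none of the members in edgeR's test. An unadjusted p under 0.05 was reached by 3 members and 25.8% of all genes. DESeq2 called 2 members and limma-voom 3, beside 1615 and 2640 of 13070 genes. The members nearest to the threshold were Bhlha15 and Sox9, both at -0.43 ± 0.14 log2 units (SE), at adjusted p-values of 0.0514 and 0.0572. All 4 antibiotics libraries (100 to 147 CPM) lay below the SPF libraries for Bhlha15 on zinc water. For Sox9 the antibiotics libraries held 61.6 to 91.5 CPM and the SPF libraries 82.3 to 125 CPM, which overlapped. DESeq2 called both lower, at adjusted p-values of 0.0204 and 0.0246. In edgeR, Sox9 was called without SPF zinc replicate 1 or antibiotics zinc replicate 3 (0.0342 and 0.0362) and Bhlha15 without antibiotics zinc replicate 2 (0.0182). Atoh1 was at 0.53 ± 0.21 (adjusted p = 0.101).

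The third set of comparisons asked what zinc water does in each context. In SPF mice 0.138% of genes and none of the members were called in edgeR's test. DESeq2 and limma-voom called 0 members, beside 40 and 60 of 13070 genes. An unadjusted p under 0.05 was reached by 3 members and 5.09% of all genes. Those 3 were Bhlha15 (0.39 ± 0.15 log2 units, SE), Atoh1 (-0.48 ± 0.22) and Spdef (-0.61 ± 0.27). Bhlha15 stood at 107 to 130 CPM on Milli-Q and 155 to 162 CPM on zinc water, and Atoh1 at 42.8 to 71.5 and 36.7 to 41.4 CPM. The share of all genes whose libraries separate between these waters was not counted. The Spdef value rested on the library of SPF Milli-Q replicate 2 (0.022 log2 units on leaving it out). In germ-free mice 11.4% of genes and none of the members were called in edgeR's test. An unadjusted p under 0.05 was reached by 2 members and 28.8% of all genes. DESeq2 called 0 members and limma-voom 1, Spdef, beside 2007 and 3157 of 13070 genes. Spdef was at -0.55 ± 0.25 (adjusted p = 0.145) and Foxa3 at -0.36 ± 0.17 (adjusted p = 0.154). Spdef libraries did not overlap between the waters, at 133 to 141 CPM on Milli-Q and 77.5 to 104 CPM on zinc water.

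After antibiotics 21.7% of genes and 1 member were called on zinc against Milli-Q water. This was Sox9, which stood at 95, 97.5, 114 and 102 CPM on Milli-Q water and at 74.1, 81.8, 91.5 and 61.6 CPM on zinc water, without overlap. Sox9 fell 1.32-fold (log2 -0.40 ± 0.13, SE, adjusted p = 0.0334). Leaving out antibiotics Milli-Q replicate 2 or 3, or antibiotics zinc replicate 1 or 4, ended the call (adjusted p 0.0617, 0.1, 0.0789 and 0.116) as did scaling by library totals only (-0.55 ± 0.18, adjusted p = 0.0501). The other members ranged from -0.20 (Hes1, 0.15 SE) to 0.14 (Foxa3, 0.15 SE). Averaged over the 3 contexts 21.9% of genes and 1 member, Spdef, were called. Spdef stood at -0.40 ± 0.14 log2 units on zinc water with an adjusted p of 0.0499, and the call held in 5 of the 21 fits that left out a library. Without SPF Milli-Q replicate 2 it was at -0.18 ± 0.099 (adjusted p = 0.191).

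The zinc effect was compared between contexts by interaction terms. None of the members passed in edgeR's test for any of these terms. The share of all genes called was 0% for antibiotics against SPF, 0% for germ-free against SPF and 0.207% for germ-free against antibiotics mice. In this order 2, 3 and 1 members had an unadjusted p under 0.05, beside 18.5, 13.3 and 16.4% of all genes. DESeq2 called 0 members in each, beside 266, 38 and 323 of 13070 genes, and limma-voom 0 beside 473, 354 and 767. The largest difference by size was that of Atoh1, whose zinc effect in germ-free mice exceeded that in SPF mice by 0.63 ± 0.30 log2 units (SE), followed by Bhlha15 at -0.62 ± 0.20 for the same pair (adjusted p = 0.372 and 0.248). Over all 6 groups at once 49.7% of genes and 5 members differed in edgeR's test. These were Bhlha15 (adjusted p = 2.44e-06), Foxa3 (0.000114), Klf4 (0.00806), Hes1 (0.0339) and Spdef (0.0387). Gfi1 and Sox9 stood at 0.089 and 0.0904, Atoh1 at 0.185, Foxa2 at 0.369 and Foxa1 at 0.988.

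**Figure D4:**
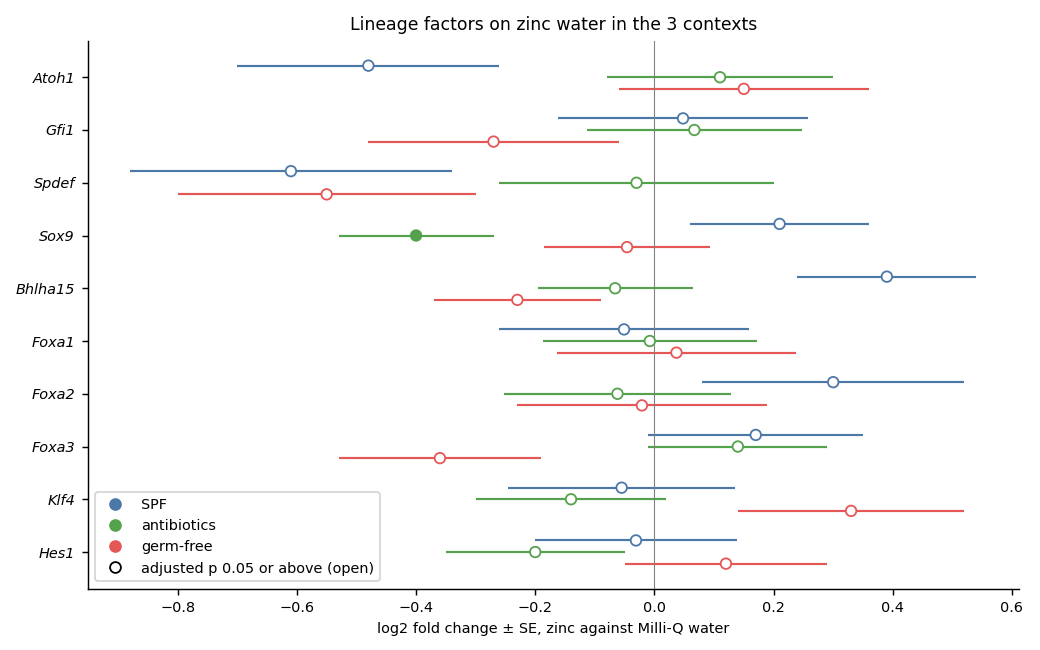
Log2 fold change ± SE (horizontal) of each factor on zinc against Milli-Q water in SPF (blue), antibiotics-treated (green) and germ-free mice (red), with filled points for an adjusted p below 0.05. The only filled point is Sox9 after antibiotics, at -0.40.

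Hes1 and Atoh1 work within the Notch pathway, for which a list of 31 genes was used. The pathway runs from ligands of the Delta and Jagged families on one cell to Notch receptors on the next, which are cut by γ-secretase and then act in the nucleus with Rbpj. Of 26 genes tested, 5 were higher and 5 lower in germ-free against SPF mice on Milli-Q water, where 24.2% of all genes were called, with a median log2 fold change of -0.12 against -0.028 for all genes. Against antibiotics 5 were higher and 7 lower on Milli-Q water (22.2% of all genes called). The ligand-like gene Dll3 was higher by 1.40 ± 0.21 over SPF and 1.04 ± 0.19 over antibiotics (log2, SE) on Milli-Q water and by 1.05 ± 0.20 and 1.09 ± 0.18 on zinc water, at adjusted p-values of 0.000102, 0.000664, 0.00606 and 0.000506. Its mean level was 8.39 CPM, and with library totals only it was at 0.44, 0.015, 0.40 and 0.33, none called. The γ-secretase subunit Psenen rose by 0.85 ± 0.14 over SPF on Milli-Q water and 0.65 ± 0.14 on zinc water, and Hes6, a Hes family member that counters Hes1, by 0.80 ± 0.16 on Milli-Q water, at adjusted p-values of 0.000237, 0.00878 and 0.00092. With library totals only Psenen was at -0.10 and 0.043 and Hes6 at -0.17, not called, so 2 of these 3 directions turned.

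The Notch target Nrarp and the ligand Dll1 were lower in germ-free mice than after antibiotics. Nrarp fell by 1.22 ± 0.20 log2 units on Milli-Q water and by 1.08 ± 0.18 on zinc water (SE), and Dll1 fell by 1.04 ± 0.19 on Milli-Q water, at adjusted p-values of 0.000222, 0.000457 and 0.000635. They were lower under library totals too, at -2.27, -1.79 and -2.09. Antibiotics went with higher Dll1 (0.97 ± 0.19) and Dll4 (0.73 ± 0.14) against SPF on Milli-Q water, at adjusted p-values of 0.0221 and 0.0218. They were the 2 of 26 genes called there, beside 0.199% of all genes. On zinc water 1 of 26 was called higher, Nrarp (0.62 ± 0.19, adjusted p = 0.04), and 1 lower, beside 8.97% of all genes. Under library totals Dll1, Dll4 and Nrarp were at 1.07, 0.80 and 0.74, at adjusted p-values of 0.0688, 0.0688 and 0.0804. Zinc water went with 1 gene higher and 5 lower of 26 after antibiotics, near the 21.7% of all genes called there. Among these Dll1 fell by 0.69 ± 0.17 and the Fringe gene Rfng by 0.86 ± 0.24 (adjusted p 0.00813 and 0.0152). In germ-free mice 4 were higher and 2 lower on zinc water, where 11.4% of all genes were called.

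A second list held 26 other lineage factors of the intestine, of which 25 were tested. In germ-free against SPF mice on Milli-Q water 3 were higher and 5 lower, beside 24.2% of all genes called, with a median log2 fold change of -0.023. The caudal homeobox factor Cdx1, which patterns gut epithelium, was higher in all 4 germ-free comparisons, by 0.85 ± 0.16 and 0.63 ± 0.15 over SPF and antibiotics on Milli-Q water and by 0.63 ± 0.16 and 0.43 ± 0.14 on zinc water (log2, SE), at adjusted p-values of 0.000852, 0.00534, 0.0206 and 0.0486. With library totals only, Cdx1 was at -0.12, -0.44, 0.04 and -0.30, none called. Hnf4g, a nuclear receptor of absorptive cells, fell in germ-free against SPF mice on Milli-Q water, with a log2 fold change of -1.09 ± 0.28, and the epithelial ETS factor Ehf of -0.77 ± 0.20 (adjusted p 0.00627 and 0.0072), also under library totals (-2.03 and -1.76). Of the factors that build the secretory and unfolded protein machinery, Creb3l4 was higher in germ-free mice than after antibiotics on Milli-Q water (0.59 ± 0.17, adjusted p = 0.0153) and Xbp1 on zinc water (0.48 ± 0.15, adjusted p = 0.0391). Both directions turned under library totals, where Creb3l4 was called lower (-0.44, adjusted p = 0.0287) and Xbp1 was at -0.30 (0.112). Against Milli-Q water, zinc water went with higher Hnf4g in antibiotics-treated mice (0.84 ± 0.22), in germ-free mice (1.30 ± 0.27) and averaged over contexts (0.89 ± 0.14), at adjusted p-values of 0.0107, 0.0117 and 0.000714. Ascl2, a stem cell factor that is also in the stem and cycling marker list, fell on zinc water in antibiotics-treated mice by 0.69 ± 0.20 (adjusted p = 0.0201).

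Among all genes with a mean of at least 5 CPM, those whose log-CPM followed a member most closely over the 21 libraries were named as a description. The libraries fall into 6 groups, so part of each correlation is the difference between groups. For that reason the correlation of deviations from group means is given too. Closest to Bhlha15 were Habp2, Fzd9 and the Wnt ligand gene Wnt3, each with a Pearson r of 0.96, which was 0.69, 0.60 and 0.63 within groups. Closest to Foxa3 were Qsox1, which encodes a disulfide-forming oxidase of the secretory pathway (r = 0.94, 0.74 within groups), Bcas3 (0.92 and 0.67) and Msrb1 (0.92 and 0.65). For Klf4 they were Myo5c (0.86 and 0.67), Stox2 (0.86 and 0.63) and Septin8 (0.85 and 0.84). For Hes1 they were Foxred1 (0.83 and 0.72), Myb (0.82 and 0.74) and Erfe (0.82 and 0.65).

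The closest genes to Atoh1 were Slc35c1 (r = 0.84, 0.85 within groups), Txndc5, which encodes a protein disulfide isomerase of the endoplasmic reticulum (0.84 and 0.85), and Bcas1 (0.83 and 0.83). Those closest to Spdef were Gne, which encodes an enzyme of sialic acid synthesis (0.89 and 0.93), Bace2 (0.88 and 0.88) and Ffar2 (0.86 and 0.89). For both factors the correlation within groups was as high as over all libraries. SPF Milli-Q replicate 2, the highest SPF library on Milli-Q water for both, was kept, and no correlation was computed without it. Gfi1 was followed by Fem1a, Tbrg1 and Mid1ip1 (r = 0.77 each), Sox9 by Rere, Dyrk1b and Epn3 (0.79, 0.78 and 0.76), Foxa1 by Chrm1, Tsc22d1 and Cbs (0.72, 0.70 and 0.70) and Foxa2 by Acvr1, Slc25a44 and Pbx3 (0.78, 0.73 and 0.72).

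Correlations between members depended on the scaling. With TMM, Bhlha15 and Foxa3 were the most alike (r = 0.86, Spearman rho = 0.76, n = 21 libraries, and r = 0.56 within groups), but with library totals only r was 0.35, below Foxa1 with Klf4 (0.91) and Atoh1 with Foxa1 (0.87). Bhlha15 ran against Klf4 over all libraries (r = -0.64) but not within groups (0.32), and against Hes1 (-0.56, and 0.01 within groups). Foxa3 and Klf4 likewise had r = -0.51 over all libraries and 0.53 within groups. All 3 were positive over all libraries with library totals only (0.08, 0.17 and 0.36). Within groups Atoh1 went with Klf4 (0.72), Foxa1 (0.69) and Spdef (0.68), and Gfi1 with Foxa3 (0.71). These values include SPF Milli-Q replicate 2, the highest SPF library on Milli-Q water for Atoh1, Klf4, Foxa1, Spdef and Gfi1. Atoh1 and its repressor Hes1 had r = -0.13 over all libraries and -0.22 within groups, against 0.74 over all libraries with library totals only. Of the 30 genes named by likeness, 10 were also among the 3 closest when libraries were scaled by totals only. These correlations carry no test.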

How the data were processed

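Per the labels, RNA of FACS-sorted PCs was extracted on columns and sequenced from stranded mRNA libraries. The deposited table holds raw counts made by the authors per Ensembl gene without normalization, 1 column per library (0 columns unmatched). The submitters' processing notes name FastQC 0.12.0, STAR 2.7.0a, DESeq2 and mm39. The counter, its strand setting and how multi-mapping reads were treated are not given in the sources used here. Genes with overlapping neighbours (Bhlha15, Gfi1, Sox9, Hes1) are uncertain to that extent. Of 55414 identifiers, 54749 matched GENCODE M39 (GRCm39).

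Counts were fitted with edgeR 4.0.16 (R 4.3.3, limma 3.58.1) by quasi-likelihood, with all 21 libraries, 6 group coefficients, TMM factors and filterByExpr (13070 genes, common dispersion 0.0369). P-values were adjusted by Benjamini-Hochberg over all genes, separately for the 14 comparisons, and called below 0.05. The fit was also run on simulated counts in which randomly drawn genes differed between germ-free and SPF mice on Milli-Q water. That simulation did not copy the shift of secreted products, so it cannot bear on the choice of scaling. For log-CPM the prior count was 2. Plots used matplotlib 3.10.9 under Python 3.11.15.

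The members and gene lists were chosen with earlier results of these data known. From the Notch and lineage lists at most 3 genes per comparison were eligible for naming, those with the largest change among called genes with at least 5 CPM. Of the products Defa24, Lyz1, Mmp7 and Itln1 were named, and by likeness 3 genes per member. The alternatives tried were size factors of the DESeq2 type, totals of the libraries alone, TMM without the 38 products, DESeq2 1.42.0, limma-voom, no filter or 10 counts in 10 libraries, only the groups compared, a replicate block and leaving out each library. For shares, levels and likeness they were counts without mitochondrial genes, mean transcript length and library totals. The 18S term and totals outside products and 18S were added after seeing the data. Replicate numbers did not pair the samples.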

Additional observations from a re-analysis of the deposited data

How the results depend on the processing

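Bhlha15 and Foxa3 stayed higher in germ-free than SPF and antibiotics-treated mice on Milli-Q water, and stayed called, in every alternative but library totals only. Over all members and comparisons, 1345 values under alternatives that kept every library had the direction and threshold side of the reported value. Of the rest, 26 lost a call, 32 gained one and 17 turned around and were called in 1 of both fits. Most of the 1345 were called in neither fit. Among fits that left out 1 library, 1208 values stayed the same, 45 lost a call and 7 gained one. All 17 came with library totals only, where the median of all genes was -0.99 and -0.61 for germ-free against SPF on Milli-Q and zinc water and -1.05 and -0.74 against antibiotics. Against SPF on Milli-Q water they were Gfi1 (-0.34), Sox9 (-0.84), Foxa1 (-0.96) and Foxa2 (-0.54), and on zinc water Foxa2 (-0.58) and Foxa3 (-0.068). Against antibiotics on Milli-Q water they were Atoh1 (-1.01), Gfi1 (-0.81), Spdef (-0.33), Foxa1 (-0.98), Foxa2 (-0.79) and Foxa3 (-0.05), and on zinc water Atoh1 (-0.71), Sox9 (-0.45), Foxa1 (-0.63), Foxa2 (-0.49) and Foxa3 (-0.28). Counts of members called moved as follows, and the cause was not tested. For zinc in SPF mice 1 was called without the filter on low counts (269 of 24548). After antibiotics 0 were called with library totals (1445) and with the 18S term (478), and 0 to 1 without 1 library. In germ-free mice 1 was called by limma-voom (3157) and 1 without the filter (1906 of 24548). Averaged over contexts 0 were called with library totals (1286), with TMM without the products (2886), by limma-voom (4126) and with the 18S term (597). Without 1 library 0 to 1 were called there. For antibiotics against SPF on zinc water 2 were called with DESeq2-type size factors (1180) and by DESeq2 (1615). The stricter filter (1166 of 12117) and totals outside products and 18S (1102) also gave 2. There 3 were called by limma-voom (2640), 1 without the filter (1491 of 24548) and 1 with only the groups compared (2017 of 12272). Without 1 library 0 to 1 were called. For germ-free against SPF on Milli-Q water 2 were called with the 18S term (2537) and 2 to 4 without 1 library. On zinc water 4 were called with library totals (6310), 2 by DESeq2 (1212), 2 without the filter (1110 of 24548) and 3 by limma-voom (2080). There 0 were called with DESeq2-type size factors (739) and with only the groups compared (14 of 11912). The 18S term (124) and totals outside products and 18S (1241) also gave 0, and fits without 1 library 0 to 3. Against antibiotics 2 were called with the 18S term on Milli-Q water (1299), and on zinc water 7 with library totals (8649). There 1 was called with only the groups compared (865 of 11757), with the 18S term (1528) and with totals outside products and 18S (1850). Without 1 library 1 to 2 were called. For any difference among the groups 8 were called with library totals (11168), 2 with the 18S term (4632) and 3 to 6 without 1 library.

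Replicate numbers did not pair the samples, since the 48 pairs of same-numbered libraries correlated between -0.386 and 0.229 in their deviations from group means. These numbers come from the titles. The descriptions number the germ-free Milli-Q libraries 1, 3 and 4, which gave 46 pairs between -0.386 and 0.229, and the block was run with the titles only. With a replicate block, 3 members instead of 1 were called for germ-free against SPF on zinc water, beside 697 instead of 764 of 13070 genes. The 3 were Atoh1 (adjusted p = 0.0495), Bhlha15 (0.0373) and Foxa3. The block moved no other count of members by over 1.5 times. Depth limited Gfi1 most, with as few as 67 counts in a library.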
